A study of Mus musculus with 8 samples.

Results

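The genes described here are 10 that guard mouse cells against ferroptosis, a form of death driven by iron-dependent peroxidation of membrane lipids. They are Slc7a11, Slc3a2, Gclc, Gclm, Gss, Gsr, Gpx4, Aifm2, Gch1 and Dhodh, 10 of the 52097 genes in the deposited table. The 10 were chosen by name, although earlier results of these data were known. Each matched 1 Ensembl identifier. The samples were 3 libraries from Nup214fl/fl,Mx1-Cre mice (knockout) and 5 from Nup214fl/fl mice (control), all from bone marrow collected 3 days after pIpC. Both groups carried 2 loxP-flanked Nup214 alleles and received pIpC, a double-stranded RNA mimic that induces interferon. Mx1-Cre is an interferon-inducible recombinase that also acts in cells other than blood stem cells. No control carried the recombinase, so its own effects and those of losing Nup214 cannot be told apart. The labels give the gate CD48-CD150+LSK for haematopoietic stem cells, and the RNA was amplified by the Geo-seq method before sequencing. Nothing in the labels ties the libraries to separate animals. A p-value here thus covers library-to-library spread alone, which may be partly technical. The question, from the study's title, is whether loss of the nucleoporin NUP214 is linked to ferroptosis.

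Ferroptosis defence has a main line and several parallel ones. In the main line, system xc-, a pair of SLC7A11 and SLC3A2, brings in cystine, and glutamate-cysteine ligase (GCLC with its modifier GCLM) and glutathione synthetase (GSS) build glutathione. GPX4 spends glutathione to reduce lipid hydroperoxides, and glutathione reductase (GSR) returns the oxidised form. In parallel, FSP1 (the product of Aifm2) and DHODH regenerate reduced coenzyme Q at the plasma membrane and in mitochondria, and GCH1 starts the synthesis of tetrahydrobiopterin, a lipid-soluble antioxidant.

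Values are FPKM, fragments counted per transcript length and per mapped total of the library. Transcript length is thus allowed for where levels of different genes are compared. Whether amplification was even between genes was not tested. Estimated depth was 16100000 to 22600000 fragments in knockouts and 20000000 to 44300000 fragments in controls. Nup214 stood at 17.6, 9.66 and 18.2 FPKM in the knockouts, replicates 1 to 3, against 43.2, 65.2, 48.5, 34.2 and 55.3 FPKM in controls 1 to 5 (log2 fold change -1.66 ± 0.25, SE, limma adjusted p = 0.000289). After median-ratio rescaling its value was -0.74 (adjusted p = 0.0483), and that call ended in 6 of the 8 fits that leave out 1 library, down to -0.42 without knockout replicate 2 (adjusted p = 0.190). Genes of the mitochondrial genome took 37.8% to 43.3% of summed FPKM in knockouts and 5.02% to 6.66% in controls. FPKM is a share of its library, so the level of every other gene depends on that share. Across the 15121 genes tested, 59.5% were called lower and 8.91% higher in the knockout as deposited, with a median log2 fold change of -0.81. Median-ratio rescaling gave 17.1% and 18.7%, at a median of -0.03. After rescaling to the non-mitochondrial total they were 39.0% and 11.8% (median -0.44), and after quantile normalization 20.3% and 16.7% (median -0.11). Each tested member below is therefore given as deposited, relative to the as-deposited median of all genes, and after rescaling. That median was itself -1.01 over the 9653 genes with a mean FPKM of at least 5. It was -0.99 with 0.1 rather than 1 added before taking logs. An offset from -0.81 thus depends on the genes included and on the amount added.

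The cells also differed by other markers. Counts called here are as deposited, to be read beside the 59.5% of all genes called lower and 8.91% called higher. Stem cell markers summed to 347 to 450 FPKM in knockouts and 1102 to 1433 FPKM in controls, with 10 of 14 called lower and 1 higher. The 10 stayed lower after every rescaling, so most markers of the labelled cell type were low in the knockout libraries. Kit, a receptor used in the gate, averaged 12.0 ± 10.3 FPKM in knockouts and 137 ± 20.97 FPKM in controls (SD, n = 3 and n = 5). Macrophage markers summed to 1848 to 7466 FPKM in knockouts and 431 to 591 FPKM in controls, with 11 of 12 called higher. T and NK cell markers summed to 1844 to 2432 FPKM in knockouts and 365 to 911 FPKM in controls, with 12 of 12 called higher. Stromal and endothelial markers summed to 362 to 854 FPKM in knockouts and 77.1 to 92.5 FPKM in controls, with 8 of 11 tested called higher and 2 lower. Neutrophil markers summed to 1746 to 7005 FPKM in knockouts and 2742 to 6962 FPKM in controls, with 2 of 10 called lower. B cell markers summed to 45.4 to 83.4 FPKM in knockouts and 66.5 to 86.0 FPKM in controls (2 of 5 tested called lower). Erythroid markers summed to 99.3 to 287 FPKM in knockouts and 117 to 231 FPKM in controls (2 of 6 tested called higher and 2 lower). The part of such cells in the results that follow was not tested. In bulk RNA, fewer cells of a type and less RNA per cell cannot be told apart.

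Of the 10 defence genes, 7 were lower in the knockout as deposited, 0 were higher, 2 did not pass and 1 was too low to test. No tested member was higher at an unadjusted limma p under 0.05 either. The 7 that fell were Gclc, Gclm, Gss, Gpx4, Aifm2, Gch1 and Dhodh; Slc3a2 and Gsr did not pass, and Slc7a11 reached an FPKM of 1 in too few libraries. This share is to be read against the 59.5% of all genes that also fell. The members' median log2 fold change was -0.89 beside -0.81 for all genes, and 5 of the 9 tested lay below that median and 4 above it. The 2 groups did not overlap in the 7 genes that fell, as in 54.5% of all genes tested; 0 tested members lay above the controls without overlap, against 7.89% of all genes. Under all 4 scalings 2 genes, Gss and Dhodh, stayed lower. Slc3a2 was higher under each of the 3 rescalings.

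**Figure D1:**
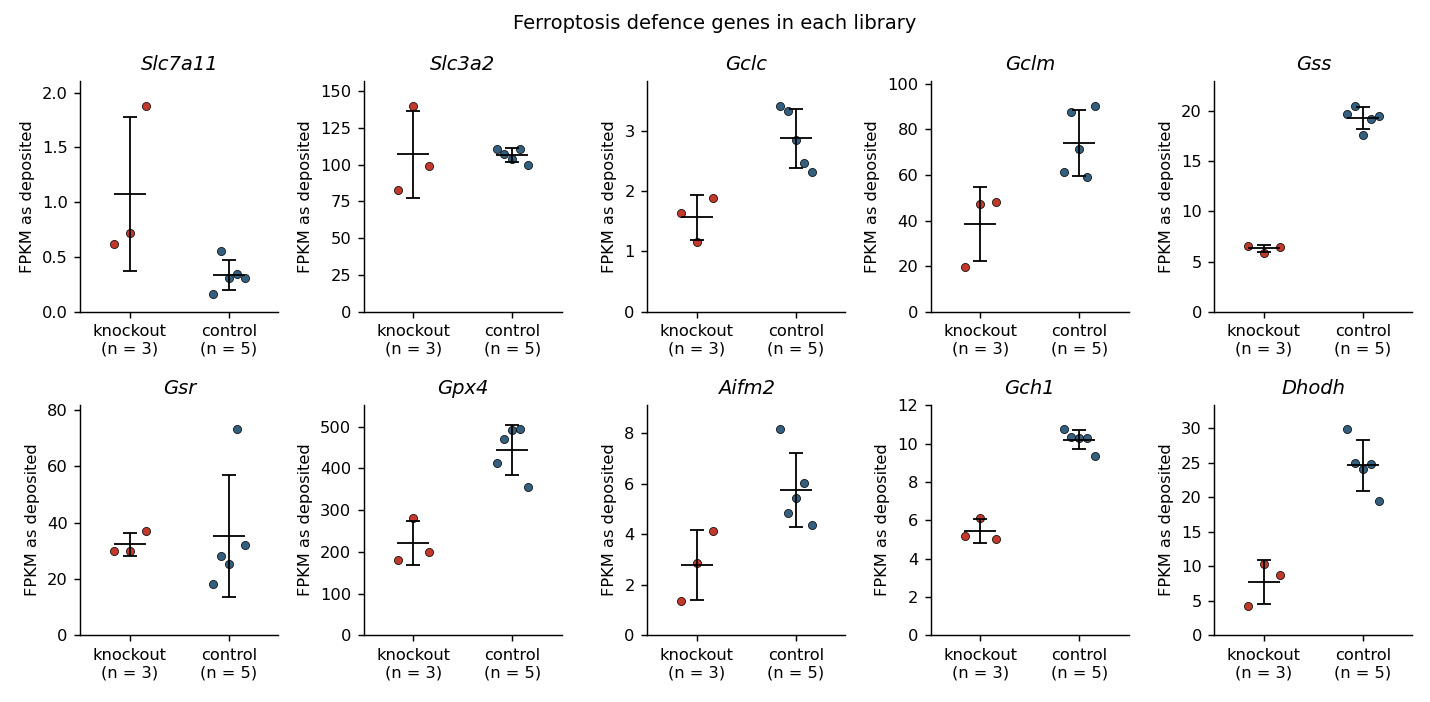
FPKM as deposited for each of the 10 defence genes; points are libraries (3 knockout, 5 control), long bars the group mean and whiskers 1 SD. Gss lies near 6.3 in knockouts and 19.3 FPKM in controls with tight groups, Slc3a2 overlaps, and control replicate 4 stands alone for Gsr at 73.0.

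**Figure D2:**
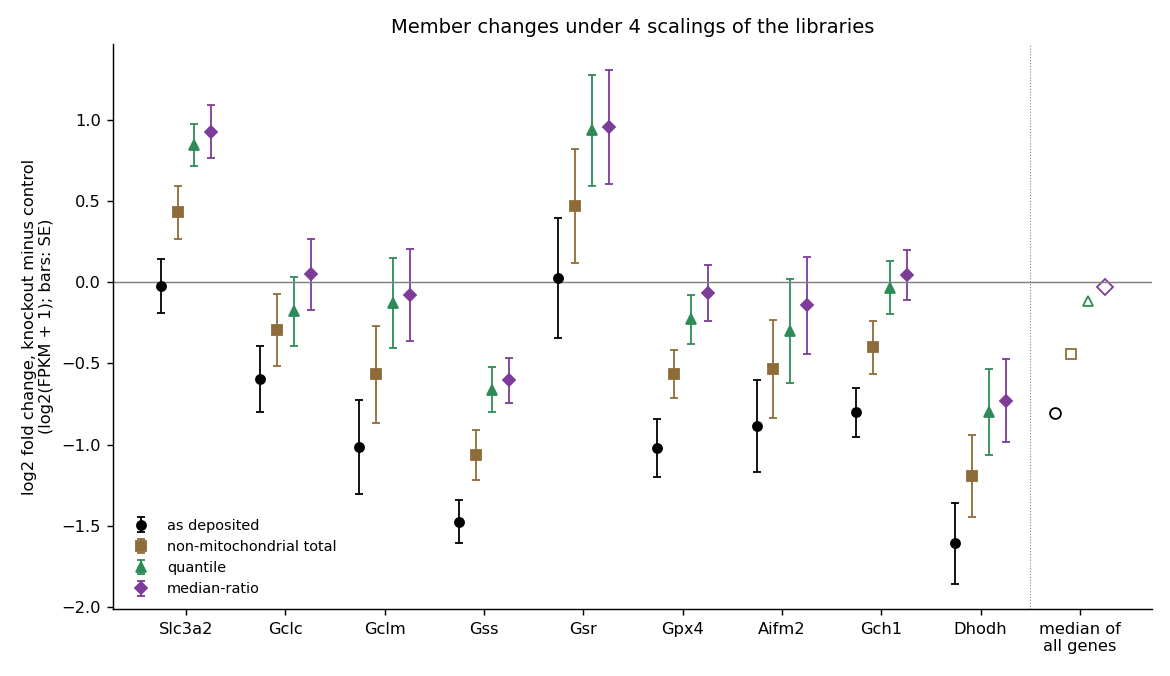
Log2 fold changes (knockout minus control, bars SE) of the 9 tested members under 4 scalings, with the median of all 15121 genes at the right. The members shift upward together with that median; Gss and Dhodh stay below 0 throughout, and Slc3a2 and Gsr lie above the median throughout.

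Neither gene of cystine uptake was called as deposited. Slc7a11 encodes xCT, the transport subunit of system xc-. The gene lies at chr3:49892526-50443614, minus strand, as annotated by GENCODE M21 on GRCm38, the source of all gene positions here. Its FPKM was 0.62, 0.72 and 1.88 in knockout replicates 1 to 3, against 0.16, 0.55, 0.31, 0.34 and 0.31 FPKM in controls 1 to 5. All 3 knockouts were above every control, although replicates 1 and 2 exceeded control replicate 2 by little. The mean was 1.07 ± 0.700 FPKM in knockouts (SD, n = 3) and 0.334 ± 0.140 FPKM in controls (SD, n = 5); the knockout mean was 0.67 without replicate 3. Fitted without a filter, its log2 fold change was 0.59 ± 0.24 (SE, limma adjusted p = 0.0919), which did not pass; in that fit 8.43% of 42237 genes were called higher and 19.4% lower. On this scale the change of so low a gene is understated. Within its span the processed pseudogene Gm37692 was listed at 4.87 FPKM in knockout replicate 1 and at 0 in all other libraries. Processed pseudogenes on the opposite strand there were also above 0 in knockouts only. Gm37826 was at 1.04 FPKM in knockout replicate 2, and Gm2345 at 1.08 and 1.56 FPKM in knockout replicates 2 and 3. Their part in the level of Slc7a11 was not tested. The levels of Slc7a11 were on average the lowest of the set in both groups. At the estimated depths, 1 fragment in a 1-kb transcript was worth at most 0.0621 FPKM, in knockout replicate 1, and at least 0.0226 FPKM, in control replicate 1.

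The start of Slc7a11 is shown because it alone among the members' promoters held the core of the amino acid response element, the sequence bound by ATF4 when amino acids are short. The sequence is from RefSeq, GRCm38.p6, chr3:50443564-50443863, minus strand, 250 bases before to 50 after the gene's start, with the letters TGATGCAA on either strand in capitals.
Slc7a11: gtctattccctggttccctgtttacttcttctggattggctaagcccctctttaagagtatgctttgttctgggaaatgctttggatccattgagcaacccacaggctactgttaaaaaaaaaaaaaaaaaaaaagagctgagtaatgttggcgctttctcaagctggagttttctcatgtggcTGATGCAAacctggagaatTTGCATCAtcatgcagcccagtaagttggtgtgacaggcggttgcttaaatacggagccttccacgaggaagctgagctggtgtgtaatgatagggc
The letters occurred 2 times here, once on each strand, and without overlap. Of 32851 mouse promoters of the same length, 0.895% held them at least once. RefSeq promoters were matched for 7 of the 10 members. The core of the antioxidant response element, TGACNNNGC, which NRF2 binds, occurred in the promoter of Gclm among these and in 12.4% of all promoters. A match is a description of the letters only.

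Slc3a2 encodes CD98hc (4F2), the heavy chain that carries xCT and several other amino acid transporters to the cell surface. At chr19:8706882-8723369, minus strand, it stood at 82.8, 140 and 98.8 FPKM in knockouts 1 to 3, against 111, 107, 104, 111 and 99.8 FPKM in controls 1 to 5. The controls lay close together, with a coefficient of variation of 4.496%, and the knockouts fell on both sides of them, with one of 27.6%. As deposited the log2 fold change was -0.02 ± 0.17 (SE, limma adjusted p = 0.914), which lies 0.78 above the median of all genes. After median-ratio rescaling it was 0.93 ± 0.16 (SE, adjusted p = 0.00179). With quantile normalization it was 0.85 (adjusted p = 0.000804) and with the non-mitochondrial total 0.43 (adjusted p = 0.0464). The order of the 3 knockout libraries in Slc3a2 was that of their macrophage marker sums, 1848, 7466 and 3962 FPKM in replicates 1 to 3. Their stromal and endothelial marker sums, 362, 854 and 421 FPKM, had that order too. The stem cell marker sums, 450, 347 and 379 FPKM, and the erythroid ones, 287, 99.3 and 172 FPKM, had the reverse order. Gpx4 and Dhodh, both lower in the knockout as deposited, had the order of Slc3a2, and the other members did not. The part of any of these cells was not tested.

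Of the genes that build glutathione, Gss had the largest fold change and Gclc the smallest. Gss encodes the synthetase of the second and last step. At chr2:155563181-155592810, minus strand, it was at 6.58, 5.86 and 6.45 FPKM in knockouts 1 to 3, against 19.7, 20.5, 17.6, 19.2 and 19.5 FPKM in controls 1 to 5. The knockouts were all at about the same low level, with wide space between the groups. The knockout mean was 0.326 of the control mean, and the log2 fold change was -1.48 ± 0.13 (SE, limma adjusted p = 1.85e-05), or -0.67 relative to the median of all genes. Gss was still lower after median-ratio rescaling (-0.60 ± 0.14, SE, adjusted p = 0.00767). Its span overlaps the opposite-strand gene Acss2, which was at 9.61 to 12.8 FPKM in knockouts and 17.8 to 23.4 FPKM in controls. Reads from any stretch that both share cannot be told apart without strand. Whether their exons overlap was not examined.

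Glutamate-cysteine ligase, which catalyses the first and rate-limiting step, is made of a catalytic subunit from Gclc and a modifier subunit from Gclm that raises its activity. Gclc (chr9:77754535-77794485, plus strand) was at 1.64, 1.15 and 1.89 FPKM in knockouts 1 to 3, against 3.41, 3.32, 2.84, 2.46 and 2.31 FPKM in controls 1 to 5. Every knockout was below every control, but the gap between the nearest libraries was small. Its log2 fold change was -0.60 ± 0.21 (SE, limma adjusted p = 0.0254), or 0.21 above the median of all genes. That call ended without knockout replicate 2 (adjusted p = 0.0705) or control replicate 1, 2 or 3 (adjusted p = 0.0528, 0.0613 and 0.0525). After median-ratio rescaling the value was 0.05 (adjusted p = 0.882).

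Gclm was far more abundant than Gclc in every library. At chr3:122245557-122270732, plus strand, it was at 19.6, 47.4 and 48.3 FPKM in knockouts 1 to 3, against 61.5, 87.5, 71.6, 59.3 and 90.4 FPKM in controls 1 to 5. Knockout replicate 1 was the lowest by far, and no knockout reached a control. The log2 fold change was -1.01 ± 0.29 (SE, limma adjusted p = 0.0108), and -0.60 without knockout replicate 1 (adjusted p = 0.0238). Relative to the median of all genes it was -0.21, but the median was also -1.01 among genes with a mean FPKM of at least 5. After median-ratio rescaling it was -0.08 ± 0.28 (SE, adjusted p = 0.863).

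Gsr encodes glutathione reductase, which uses NADPH to restore reduced glutathione. At chr8:33652523-33698163, plus strand, it was at 30.04, 29.8 and 37.0 FPKM in knockouts 1 to 3, against 18.2, 28.3, 25.4, 73.0 and 32.1 FPKM in controls 1 to 5. The groups overlapped, and control replicate 4 was far above all others. The log2 fold change was 0.03 ± 0.37 (SE, limma adjusted p = 0.954), or 0.83 above the median of all genes. After median-ratio rescaling it was 0.96 ± 0.35 (SE, adjusted p = 0.0597), which did not pass; without control replicate 4 it was 1.25 (adjusted p = 0.00142). The control mean was 35.4 ± 21.7 FPKM (SD, n = 5), and 26.0 ± 5.92 FPKM without that replicate.

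GPX4 is the one glutathione peroxidase that reduces phospholipid hydroperoxides within membranes, and its loss is a classic trigger of ferroptosis. Gpx4 was the most abundant gene of the set. At chr10:80047166-80056439, plus strand, it was at 182, 281 and 200.1 FPKM in knockouts 1 to 3, against 412, 471, 492.7, 493.5 and 356 FPKM in controls 1 to 5. All knockouts were below all controls, with knockout replicate 2 the closest to them. The mean was 221 ± 52.6 FPKM in knockouts (SD, n = 3) and 445 ± 60.0 FPKM in controls (SD, n = 5). The log2 fold change was -1.02 ± 0.18 (SE, limma adjusted p = 0.000674). Relative to the median of all genes this was -0.21, but among genes with a mean FPKM of at least 5 the median was -1.01, close to Gpx4. It was -0.56 with the non-mitochondrial total (adjusted p = 0.0106), -0.23 with quantile normalization (adjusted p = 0.271) and -0.06 after median-ratio rescaling (adjusted p = 0.802), so the call depended on the scaling.

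GPX4 is a selenoprotein, whose active site holds selenocysteine encoded by a TGA codon. The stretch around that codon is shown beside its copy in the processed pseudogene Gpx4-ps2, because reads from 2 such sequences can be split or shared by the authors' counting. Both are from GENCODE M21 on GRCm38, plus strand, with the TGA codon in capitals, at chr10:80054713-80054763 for Gpx4 and chr10:45875444-45875494 for Gpx4-ps2.
Gpx4: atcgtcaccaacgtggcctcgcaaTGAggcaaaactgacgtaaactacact
Gpx4-ps2: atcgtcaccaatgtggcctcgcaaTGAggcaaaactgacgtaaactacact
Over these 51 bases the pair differed by 1 substitution, C12T, counted from 1 at the 5′ end with the Gpx4 base first. Over 733 aligned bases they were 99.7% identical. Gpx4-ps2 was listed at 9.39, 15.6 and 12.8 FPKM in knockouts 1 to 3, against 18.3, 32.8, 17.5, 20.4 and 28.4 FPKM in controls 1 to 5. It made up 5.39% ± 0.554 of the summed FPKM of both in knockouts (SD, n = 3) and 5.11% ± 1.73 in controls (SD, n = 5), and the sum averaged 233 ± 55.4 FPKM in knockouts and 468 ± 58.4 FPKM in controls. The level of Gpx4 thus differed between the groups by about the same factor with or without the copy.

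The 5 named protein-coding genes whose library-to-library pattern was closest to that of Gpx4 were Gstp1, Mad2l2, Vps51, Mcrip1 and Atp6v1f. They were chosen from 11732 by the root mean square difference of log2(FPKM + 1) values, each centred on its own mean over the 8 libraries. The difference was 0.05 for Gstp1, 0.07 for Mad2l2 and 0.09 for the other 3. Gstp1, a glutathione S-transferase with a near-identical paralog that makes its level uncertain, was at 140, 207 and 144 FPKM in knockouts, against 301, 358, 349, 341 and 272 FPKM in controls.

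Among the parallel defences, Dhodh had the largest fold change. DHODH is the mitochondrial enzyme of pyrimidine synthesis that passes electrons to coenzyme Q. Dhodh (chr8:109591343-109608673, minus strand) was at 4.25, 10.4 and 8.67 FPKM in knockouts 1 to 3, against 29.8, 24.9, 24.1, 24.9 and 19.5 FPKM in controls 1 to 5. The groups were well apart, and knockout replicate 1 was lowest. The log2 fold change was -1.61 ± 0.25 (SE, limma adjusted p = 0.000331), or -0.80 relative to the median of all genes. After median-ratio rescaling it was -0.73 ± 0.26 (SE, adjusted p = 0.0497); that call ended without any library except knockout replicate 2, and without knockout replicate 1 the value was -0.37 (adjusted p = 0.159).

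Aifm2 encodes FSP1, which is tethered to the plasma membrane and keeps coenzyme Q reduced with NAD(P)H. At chr10:61715263-61739260, plus strand, it was at 1.36, 2.86 and 4.12 FPKM in knockouts 1 to 3, against 8.16, 4.84, 5.46, 6.02 and 4.37 FPKM in controls 1 to 5. Knockout replicate 3 came within a small distance of control replicate 5. The log2 fold change was -0.89 ± 0.28 (SE, limma adjusted p = 0.0179), and -0.58 without knockout replicate 1 (adjusted p = 0.0667), which ended the call. Relative to the median of all genes it was -0.08, and after median-ratio rescaling it was -0.14 (adjusted p = 0.745). The opposite-strand gene H2afy2, whose span overlaps Aifm2, was at 0.04 to 0.89 FPKM in knockouts and 3.16 to 4.72 FPKM in controls.

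Gch1 encodes GTP cyclohydrolase 1, the rate-limiting enzyme of tetrahydrobiopterin synthesis. At chr14:47153895-47189413, minus strand, it was at 5.18, 6.14 and 5.02 FPKM in knockouts 1 to 3, against 10.7, 10.3, 10.3, 10.3 and 9.37 FPKM in controls 1 to 5. Both groups were tight and well apart. The log2 fold change was -0.80 ± 0.15 (SE, limma adjusted p = 0.00108), within 0.01 of the median of all genes, and after median-ratio rescaling it was 0.04 (adjusted p = 0.851).

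The make-up of the set within a library does not depend on any factor by which the whole library is scaled. Gpx4 took 48.5% to 54.4% of the summed FPKM of the 10 genes in knockouts and 56.1% to 65.4% in controls. Slc3a2 took 23.97% to 26.7% in knockouts and 13.7% to 16.4% in controls. Neither share overlapped between the groups. The shares of a library add up to the whole, so a larger share of Slc3a2 makes that of Gpx4 smaller. These results are tied, and a smaller share does not show that Gpx4 itself fell. After median-ratio rescaling Gpx4 was at -0.06 (adjusted p = 0.802). Gclm took 5.87% to 11.7% in knockouts and 7.42% to 14.3% in controls, and Dhodh 1.27% to 2.103% in knockouts and 3.08% to 4.42% in controls. In controls the order of mean levels was Gpx4, Slc3a2, Gclm, Gsr, Dhodh, Gss, Gch1, Aifm2, Gclc and Slc7a11. The ranges of Gclm and Gsr overlapped there through control replicate 4 only. Those of Gsr and Dhodh, and of Dhodh and Gss, overlapped without that replicate as well. The other neighbours did not overlap. The order of the means was the same in knockouts, where Gclm and Gsr, Dhodh and Gss, Gss and Gch1, Aifm2 and Gclc, and Gclc and Slc7a11 overlapped.

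**Figure D3:**
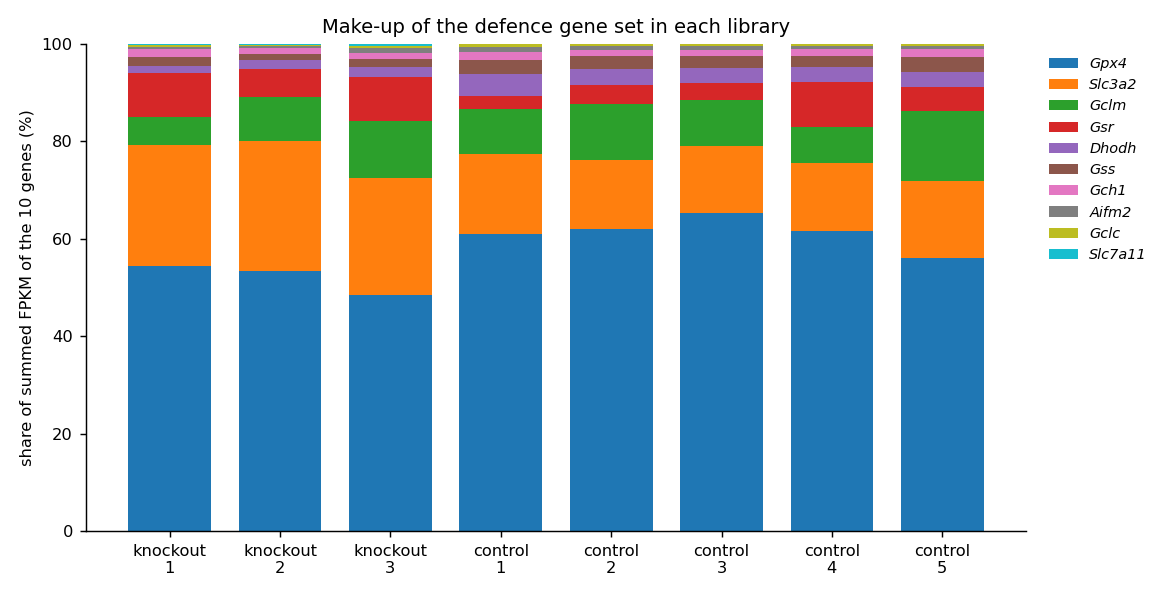
Share of the summed FPKM of the 10 genes taken by each gene, 1 bar per library, knockouts at the left. The Slc3a2 block is 23.97% to 26.7% in the 3 knockouts and 13.7% to 16.4% in the 5 controls, and the Gpx4 block is smaller in every knockout.

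Ratios of 2 members within a library, log2 of (FPKM + 0.1), are likewise almost free of scaling where both genes are well above 0.1. Slc7a11 is not, at 0.16 to 0.55 FPKM in controls, so the size of its ratios depends on the amount added. A ratio shows unequal change, not which gene moved. For 9 ratios an exact two-sided permutation test was run over the 56 ways to choose 3 of 8 libraries, whose smallest p is 0.0179. The groups did not overlap in 3 ratios, each at that smallest p, and 0 of 9 passed after Benjamini-Hochberg adjustment (adjusted p = 0.0536 for these 3; 4 had an unadjusted p under 0.05).

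Slc7a11 over Gpx4 averaged -7.69 ± 0.916 in knockouts and -10.1 ± 0.436 in controls (SD, n = 3 and n = 5), a difference of 2.36 on the log2 scale (exact permutation p = 0.0179). Without knockout replicate 3 the difference was 1.85. Dhodh over Gpx4 averaged -4.88 ± 0.452 in knockouts and -4.17 ± 0.226 in controls, a difference of -0.71 (exact permutation p = 0.0179). Gss over Gclc averaged 1.97 ± 0.269 in knockouts and 2.72 ± 0.231 in controls, a difference of -0.75 (exact permutation p = 0.0179). Slc7a11 over Slc3a2 differed by 1.36 (exact permutation p = 0.0357, adjusted p = 0.0804), with 1 knockout within the control range. In plain FPKM, Slc3a2 exceeded Slc7a11 52.6 to 195-fold in knockouts and 195 to 692.5-fold in controls.

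For the other 5 ratios the groups overlapped. Gclm over Gclc differed by -0.19 (exact permutation p = 0.696), and Gclm exceeded Gclc 11.9 to 41.2-fold in knockouts and 18.05 to 39.1-fold in controls. Aifm2, Gch1 and Gclc over Gpx4 differed by -0.10, 0.13 and 0.18 (exact permutation p = 0.875, 0.286 and 0.589), and Gsr over Gclc by 0.88 (exact permutation p = 0.179). A p above the threshold does not show that these pairs changed alike. Slc3a2 over Gpx4 was chosen after the values were seen and is given without a test. The FPKM of Slc3a2 was 0.456 to 0.499 of that of Gpx4 in knockouts and 0.210 to 0.281 in controls.

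**Figure D4:**
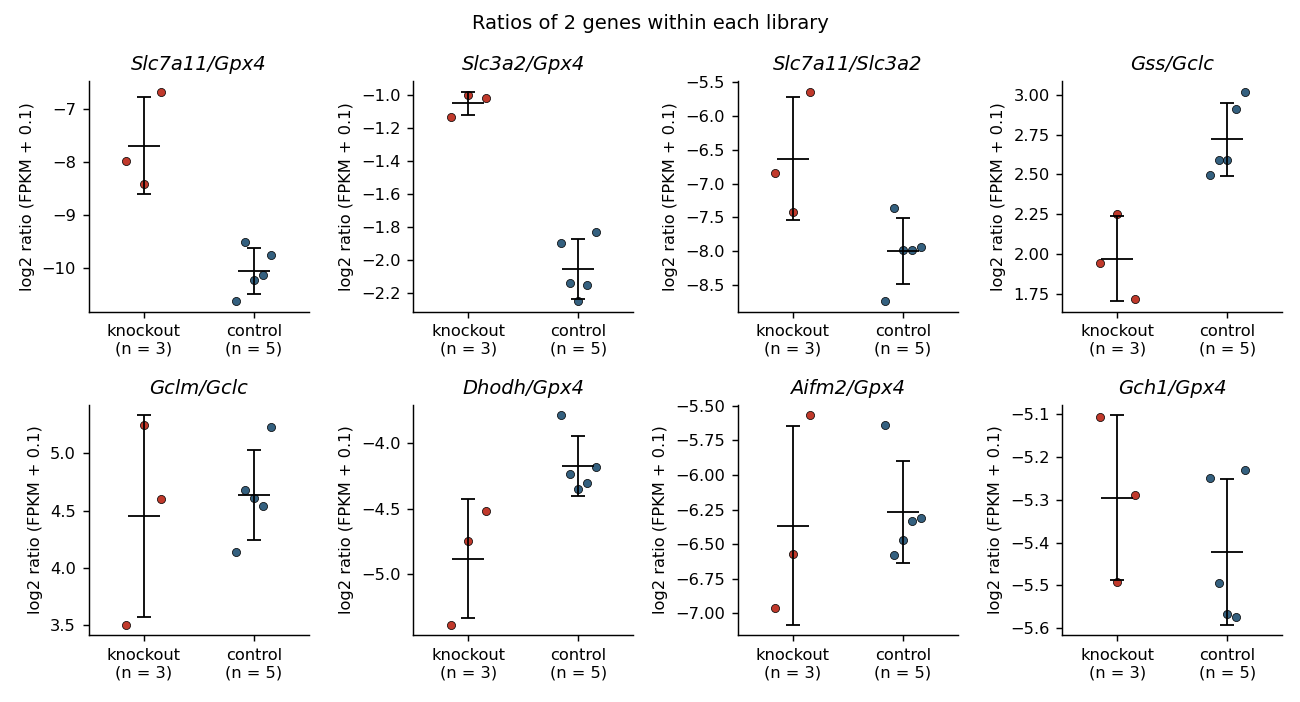
Log2 ratios of 2 genes within each library (FPKM + 0.1); points are libraries, long bars means and whiskers 1 SD, each panel with its own axis. Slc7a11/Gpx4 and Slc3a2/Gpx4 are higher in all 3 knockouts than in any control, Dhodh/Gpx4 and Gss/Gclc lower, and the other 4 ratios overlap.

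Around these members, 97 genes of 9 related pathways were examined, of which 89 were tested. As deposited 68 were lower and 7 higher. The median log2 fold change of the 89 was -0.96, beside -0.81 for all genes and -1.01 for genes with a mean FPKM of at least 5. With median-ratio rescaling the counts were 24 lower and 16 higher, at a median of -0.14. The counts of each list below are to be read against the 59.5% of all genes called lower and 8.91% called higher as deposited, and the 17.1% and 18.7% after median-ratio rescaling. The 8 genes too low to test were Gpx2, Gpx5, Gpx6, Chac1, Cth, Slc1a1, Slc1a4 and Me1.

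The other glutathione peroxidases moved in both directions, with 2 of 4 tested lower and 2 higher. Gpx1, the abundant cytosolic enzyme that reduces hydrogen peroxide, was at 308, 336 and 338 FPKM in knockouts, against 1357, 1650, 1661, 2131 and 1376 FPKM in controls (log2 fold change -2.30 ± 0.16, SE, limma adjusted p = 7.15e-06). It remained lower after median-ratio rescaling, by -1.34 (adjusted p = 0.000192). Gpx3, a secreted form, averaged 28.5 ± 9.28 FPKM in knockouts and 6.54 ± 5.78 FPKM in controls, and Gpx8, a form of the endoplasmic reticulum, 8.97 ± 4.56 FPKM in knockouts and 0.532 ± 0.344 FPKM in controls (SD, n = 3 and n = 5). Gpx7 averaged 2.81 ± 1.32 FPKM in knockouts and 5.36 ± 1.34 FPKM in controls and was called lower as deposited (adjusted p = 0.0277) but not after median-ratio rescaling (-0.02, adjusted p = 0.966).

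Of 23 tested genes that use, break down or move glutathione, 18 were lower and 1 higher as deposited, with a median of -1.32, beside 59.5% and 8.91% of all genes. After median-ratio rescaling 9 were lower and 5 higher. Mgst2, a microsomal glutathione transferase, averaged 21.7 ± 4.02 FPKM in knockouts and 87.0 ± 16.7 FPKM in controls. Abcc1, an exporter of glutathione conjugates, averaged 5.29 ± 1.45 FPKM in knockouts and 18.4 ± 1.52 FPKM in controls. The gene called higher as deposited was Ggt1, which splits glutathione outside the cell, at 3.48 ± 0.693 FPKM in knockouts and 0.868 ± 0.309 FPKM in controls (limma adjusted p = 0.00065). Under all 4 scalings 9 of these genes stayed lower and 1 higher.

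Of 6 tested genes from methionine to cysteine 5 were lower, with Mat2a, which makes S-adenosylmethionine, at 71.8 ± 10.4 FPKM in knockouts and 175 ± 20.5 FPKM in controls, and Ahcy, which hydrolyses S-adenosylhomocysteine, at 10.2 ± 1.99 FPKM in knockouts and 35.0 ± 7.79 FPKM in controls. After median-ratio rescaling 1 was lower and 1 higher, and only Ahcy stayed lower under all 4 scalings. Of 10 genes of selenoprotein synthesis and selenium supply, on which GPX4 depends, 9 were lower and 1 higher as deposited, and after median-ratio rescaling 1 was lower and 1 higher. Sephs2, which makes selenophosphate, averaged 24.99 ± 3.30 FPKM in knockouts and 61.0 ± 4.52 FPKM in controls, and Pstk, the kinase of the selenocysteine tRNA, 13.1 ± 1.88 FPKM in knockouts and 35.4 ± 4.32 FPKM in controls. After median-ratio rescaling Sephs2 was at -0.32 (limma adjusted p = 0.0831) and Pstk at -0.45 (adjusted p = 0.0425). Selenop, a secreted carrier of selenium, was at 273, 1217 and 525 FPKM in knockouts, against 165, 171, 172, 183 and 171 FPKM in controls, and at 399 in knockouts without replicate 2. Its order over the knockout libraries was that of the macrophage marker sums and of the stromal and endothelial ones. It was the reverse of that of the stem cell and erythroid sums, and the part of these cells was not tested.

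The enzymes that supply NADPH gave 4 lower and 0 higher of 7 tested as deposited, a share near the 59.5% of all genes. After median-ratio rescaling 2 were lower and 1 higher. Idh2, a mitochondrial isocitrate dehydrogenase, averaged 56.5 ± 8.23 FPKM in knockouts and 255 ± 21.3 FPKM in controls, and Tkt, transketolase, 90.3 ± 13.9 FPKM in knockouts and 275 ± 52.1 FPKM in controls. Both stayed lower under all 4 scalings.

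Other genes on the routes of Gch1, Aifm2 and Dhodh were examined beside the 59.5% of all genes called lower as deposited. Of 7 genes of tetrahydrobiopterin synthesis, recycling and control 5 were lower and 0 higher, and the median log2 fold change was -1.47. With median-ratio rescaling 4 were lower and 1 higher. Pts, which acts next after GCH1, averaged 38.8 ± 3.01 FPKM in knockouts and 154 ± 10.1 FPKM in controls (log2 fold change -1.96 ± 0.12, SE, limma adjusted p = 4.55e-06). Pcbd1, which recycles the cofactor, was at 0.22, 0 and 0 FPKM in knockouts, against 9.98, 11.4, 8.91, 10.9 and 7.70 FPKM in controls. Pts, Qdpr and Pcbd1 stayed lower under all 4 scalings, whereas Gch1 itself was at 0.04 after median-ratio rescaling. As deposited, Gchfr, the feedback regulator of GCH1, was at 2.71 to 5.08 FPKM in knockouts and 2.31 to 3.61 FPKM in controls (adjusted p = 0.252). Median-ratio rescaling divided knockout values by 0.644 to 0.672 and control values by 1.24 to 1.31. It thus raised Gchfr in knockouts and lowered it in controls, and the call of Gchfr after rescaling is not given here.

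All 15 coenzyme Q genes were lower as deposited, with a median of -1.18; after median-ratio rescaling 4 were lower and 0 higher. Coq8a, an atypical kinase of the synthesis complex, averaged 4.82 ± 0.792 FPKM in knockouts and 30.5 ± 6.94 FPKM in controls, and Coq4 3.76 ± 0.245 FPKM in knockouts and 18.8 ± 1.98 FPKM in controls. Coq2, Coq4, Coq8a and Coq9 stayed lower under all 4 scalings. Of 4 pyrimidine genes 3 were lower as deposited, and after median-ratio rescaling 1 was lower and 1 higher. Umps, which acts after DHODH, averaged 8.56 ± 1.90 FPKM in knockouts and 31.2 ± 4.01 FPKM in controls and stayed lower under all 4 scalings. Ctps, which makes CTP, averaged 7.91 ± 1.64 FPKM in knockouts and 15.6 ± 1.53 FPKM in controls and was at -0.03 after median-ratio rescaling (limma adjusted p = 0.913).

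Regulators and targets of NRF2, the factor that drives many glutathione genes, gave 7 lower and 3 higher of 13. Hmox1, haem oxygenase 1, was at 282, 815 and 543 FPKM in knockouts, against 15.96, 17.8, 18.1, 25.1 and 10.9 FPKM in controls (log2 fold change 4.80 ± 0.34, SE, limma adjusted p = 8.18e-06). Without knockout replicate 2 the knockout mean was 413 FPKM. Its order over the knockouts was again that of the macrophage marker sums and of the stromal and endothelial ones. It was again the reverse of that of the stem cell and erythroid sums, and the part of these cells was not tested. Blvrb, a biliverdin reductase, averaged 143 ± 69.2 FPKM in knockouts and 47.7 ± 7.55 FPKM in controls, and Osgin1 12.4 ± 2.61 FPKM in knockouts and 8.32 ± 2.08 FPKM in controls (adjusted p = 0.0483, a call that ended under 9 of the alternatives). Mafg, a partner of NRF2 on DNA, averaged 4.88 ± 0.125 FPKM in knockouts and 19.8 ± 2.01 FPKM in controls (SD, n = 3 and n = 5). After median-ratio rescaling 4 of the 13 were higher and 1, Mafg, was lower.

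**Figure D5:**
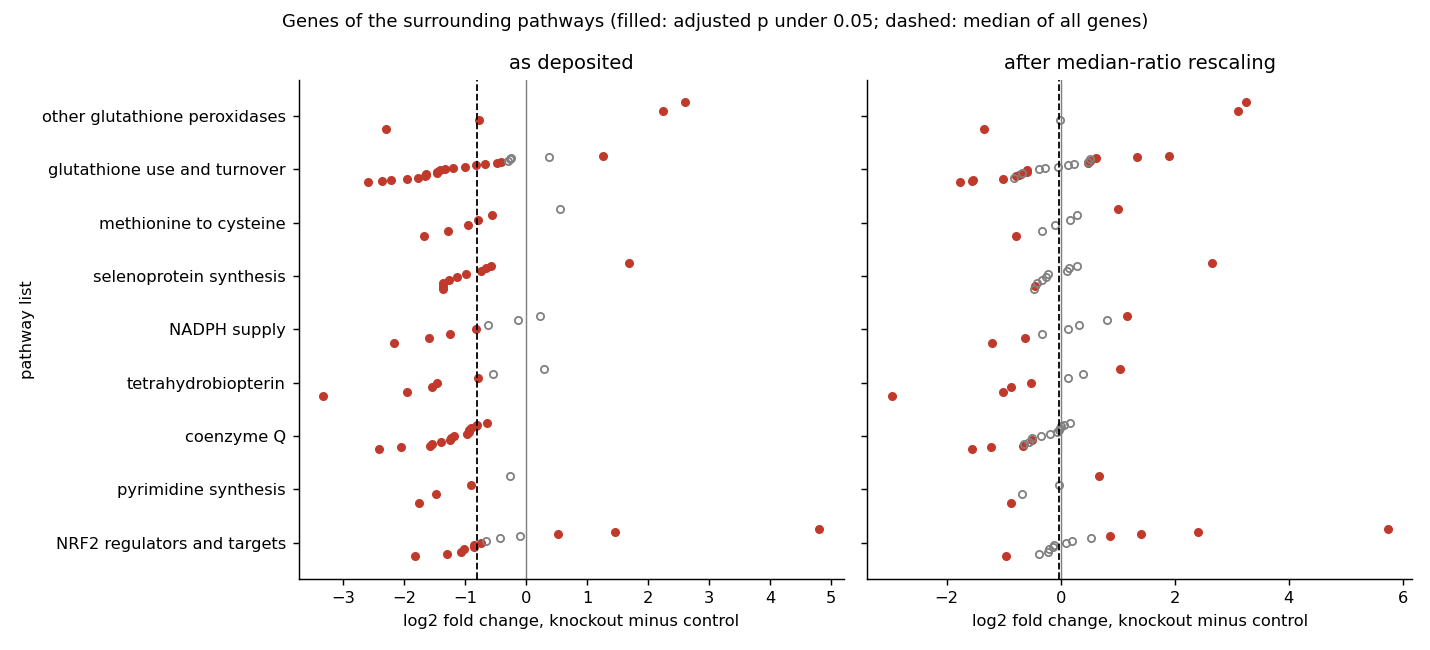
Log2 fold changes (knockout minus control) of the 89 tested pathway genes in 9 lists, as deposited and after median-ratio rescaling; filled points passed an adjusted p of 0.05 and the dashed line is the median of all genes, -0.81 as deposited and -0.03 after rescaling. List medians as deposited run between -1.47 for tetrahydrobiopterin and 0.74 for the other glutathione peroxidases, and Hmox1 lies farthest to the right at 4.80 and Pcbd1 farthest to the left.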

How the data were processed

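The authors deposited FPKM values for 52097 genes in 8 libraries, and no counts were used here. HTSeq, DESeq2, Cufflinks 2.1.1, Bowtie 0.12.9 and the build mm10 are named, without roles, per the submitters' processing notes; annotation release and strand setting are not given in the sources used here. All identifiers were matched to symbols, and coordinates were taken from GENCODE M21 (GRCm38, the assembly of mm10). Groups and replicate numbers came from the titles.

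The comparison of knockout with control used limma 3.58.1 (R 4.3.3; trend, robust) on log2(FPKM + 1). It covered the 15121 genes that reached 1 FPKM in 3 libraries or more, with Benjamini-Hochberg adjustment over all of them and a threshold of 0.05. This scale understates the change of low genes. Where an adjusted p stands without a tool, it is from limma. Median-ratio, quantile and non-mitochondrial rescaling, a pseudocount of 0.1, other filters, left-out libraries and a replicate block were alternatives.

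Depth was estimated from the steps of low values in genes with 1 transcript of 600 to 2500 nt. At the chosen depths 68.3% to 89.3% of values fell within 0.15 of a whole fragment, against 30% by chance at a depth fixed in advance. Depth was chosen to raise this share, so the comparison is not a test. These are estimates, no count test was run on them, and depth limits precision for counting error only. In a simulation of 15121 genes, the model recovered 43.6% of 2-fold and 81.2% of 4-fold changes, and 5.02% of its calls were false. These shares describe that simulation only. In the real libraries 59.5% of genes were called lower and 8.91% higher as deposited, and whether the shares carry over to them was not tested. Ratios were tested by exact permutation. Sequences were aligned with Biopython 1.88.

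Named genes were the 10 members, Nup214, the 2 genes with the smallest p in each pathway list with any called in the minority direction, and the 5 closest to Gpx4. Kit, Acss2, H2afy2, Gpx4-ps2, Gchfr, Qdpr, Coq2, Coq9 and genes named to resolve a small count were added after their values were seen. Members and lists were chosen with earlier results of these data known.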

Additional observations from a re-analysis of the deposited data

Results flagged for a closer look

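Within the 5 controls, 20 sets of values (the 10 members, Nup214 and the 9 ratios) were searched for a library far from the others, and 2 were found, where chance gives about 1 in 20 such sets. Gsr was at 73.0 FPKM in control replicate 4, and its gap to the next control was 0.745 of the whole range. The neutrophil markers of that library summed to 6962 FPKM, the highest of the controls, where the others lay between 2742 and 5096 FPKM; Gm24727, a small nucleolar RNA gene within Gsr on the same strand, was also highest there, at 8.08 FPKM. Their part was not tested. The log2 ratio of Aifm2 to Gpx4 was -5.64 in control replicate 1, a gap of 0.721 of the range, where the other controls lay between -6.57 and -6.31. Aifm2 itself was highest in that library, at 8.16 FPKM.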

How the results depend on the processing

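Scaling moved the counts most. The number of members called lower was 7 as deposited, 2 after median-ratio rescaling, 2 with quantile normalization and 3 with the non-mitochondrial total (Gpx4 in addition to Gss and Dhodh), and 1 was called higher under each of these 3. In the pathway lists 68 were lower as deposited, against 24, 24 and 45, and 7 were higher, against 16, 17 and 9. Gclc and Gch1 changed sign after median-ratio rescaling, to 0.050 and 0.045, without passing. Leaving out 1 library as deposited gave 6 to 7 members lower and 0 higher, and 64 to 69 pathway genes lower and 5 to 7 higher. Leaving out 1 library after median-ratio rescaling, chosen after the data were seen, gave 1 to 2 members lower and 1 to 2 higher. The cause of these shifts was not tested. Nup214 was called lower under each single change of setting, at -0.74 after median-ratio rescaling (adjusted p = 0.0483) and at -1.80 to -1.38 as deposited without 1 library. With both changes together its call ended in 6 of 8 fits, at adjusted p = 0.0569 to 0.190. Without 1 library the ratio of Slc7a11 to Gpx4 differed by 1.85 to 2.73, that of Dhodh to Gpx4 by -0.89 to -0.46 and that of Gss to Gclc by -0.89 to -0.62; the adjusted p of these 3 lay between 0.0643 and 0.143.

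Deviations of same-numbered libraries correlated at -0.05, 0.06 and -0.07, and those of differently numbered ones at -0.07 to 0.12. With 3 libraries per group, this cannot tell whether equal replicate numbers mark shared samples. With the replicate block, on replicates 1 to 3 of both groups, 5 members were lower and 0 higher, and 58 pathway genes were lower and 6 higher. Nup214 was at -1.75 with the block, and the ratio of Slc7a11 to Gpx4 differed by 2.43, where the exact test cannot give a p under 0.25.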

Other observations

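The members differed in how evenly they were expressed between libraries of 1 group. In controls the coefficient of variation of FPKM was 4.496% for Slc3a2, 4.94% for Gch1 and 5.53% for Gss, and 41.8% for Slc7a11 and 61.2% for Gsr. In knockouts it was 6.09% for Gss, 11.1% for Gch1 and 12.7% for Gsr, and 40.8% for Dhodh, 42.5% for Gclm, 49.7% for Aifm2 and 65.3% for Slc7a11. Knockout replicate 1 was the lowest of its group for Slc7a11, Slc3a2, Gclm, Gpx4, Aifm2 and Dhodh, and it had the lowest estimated depth, 16100000 fragments; the part of depth was not tested. The span of Gclm overlaps Gm17494 on the opposite strand, a processed transcript at 3.54 to 6.56 FPKM in knockouts and 7.14 to 16.98 FPKM in controls.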
